A study of Mus musculus with 4 samples.

Results

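The S2-like nuclei were proximal tubule nuclei chosen by their own counts. A nucleus belonged to them with at least 1 UMI of *Lrp2*, at least 2 UMIs of *Slc22a28* and *Cntnap5a* together, and 0 UMIs of *Cyp7b1* and of *Slc22a19*. A UMI (unique molecular identifier) marks 1 captured RNA molecule, and PCR copies of it count once. Of 27343 nuclei kept from 4 mice, 7622 met the rule, and 17139 held *Lrp2*. Control mice 1 and 2 gave 2270 and 914 of the S2-like nuclei, and knockout mice 1 and 2 gave 2514 and 1924.

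The mice were males of 12 weeks. Both knockout mice were *Hoxb7Cre+;Tfap2a fl/fl*, and both controls carried the same floxed *Tfap2a* alleles without Cre. The floxed alleles have *loxP* sites around exons 5 and 6 of *Tfap2a*, which encodes an AP-2 transcription factor, and *Hoxb7Cre* is active in the collecting duct and lower urinary tract epithelia rather than in the proximal tubule. Kidney slices were trimmed of cortex to enrich the medulla, so the S2-like nuclei are those that remained in such a slice, and each mouse gave 1 library. The libraries held 22179410 to 44964099 UMIs, and any pair of them shared 7 to 18 of the barcodes kept. The libraries numbered 1 of either genotype were deeper, with more free RNA (an estimated 17.3% and 15.9% of UMIs against 9.96% and 6.30% in those numbered 2). Free RNA is RNA outside nuclei that enters droplets and gives UMIs in nuclei that do not express the gene. A replicate here is 1 mouse, and UMIs were summed over the S2-like nuclei of a mouse before any comparison.

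The proximal tubule takes back most of the filtered water, salt, sugar, amino acids and phosphate, and it is divided along its length into the segments S1, S2 and S3. S1 is known for bulk sodium-coupled uptake at high capacity, S3 for high-affinity uptake and steroid-dependent genes, and S2 for secretion of organic anions such as drugs and urate through basolateral transporters of the SLC22 family, driven by dicarboxylate uptake. Megalin, the product of *Lrp2*, is an endocytic receptor for filtered protein in every segment.

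The 5 genes of the rule lie apart in the genome mm10, with 2 of them in the same stretch of chromosome 19. *Slc22a28* is at chr19:8061958-8131982 and *Slc22a19* at chr19:7673075-7711310, both members of the organic anion transporter family, whose close copies can share reads. *Lrp2* is at chr2:69424335-69586029. *Cntnap5a*, a gene of the neurexin-related Caspr family, is at chr1:115684737-116587323, and *Cyp7b1*, an enzyme that hydroxylates oxysterols, is at chr3:18071944-18243890. How reads that match several copies were assigned is not given in the sources used here.

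Nearly all S2-like nuclei held *Slc22a28*, with or without *Cntnap5a*. Nuclei that held *Slc22a28* without *Cntnap5a* numbered 928 and 519 in the controls and 893 and 1069 in the knockouts, and those that held both genes numbered 1293 and 390 against 1534 and 821. *Cntnap5a* without *Slc22a28* was found in only 49, 5, 87 and 34 nuclei. The share with both genes was 57.0% and 61.0% in the libraries numbered 1 and 42.7% in each library numbered 2. The median S2-like nucleus held 4 to 6 UMIs of the pair, depending on the mouse.

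The rule has edges that depend on single UMIs. With exactly 2 UMIs of the pair, just inside it, stood 311, 112, 334 and 368 nuclei (both controls first, then both knockouts, as in every run of 4 values). With exactly 1, just outside, stood 335, 124, 368 and 310. *Slc13a3* was at 348, 576, 387 and 474 CPM (a gene's UMIs, scaled to a common total for each gate and mouse) just inside and at 243, 390, 272 and 353 just outside, and *Slc22a6* was at 276, 443, 411 and 327 inside and at 279, 306, 320 and 266 outside. Exactly 1 UMI of *Cyp7b1* and *Slc22a19* together kept out 11.9%, 9.05%, 13.3% and 5.41% of the nuclei that met the *Lrp2*, *Slc22a28* and *Cntnap5a* limits. In thick ascending limb nuclei, which should hold neither gene, 15.6%, 13.3%, 17.8% and 4.90% had such a UMI, at a median depth of 1833 to 2074.5 UMIs against 3117 to 3757 in S2-like nuclei. Those thick ascending limb nuclei met the *Slc22a28* and *Cntnap5a* limit in 0.261% to 1.57% of cases. They were at 0 CPM of *Lrp2* in each mouse, whereas *Slc34a1*, another proximal tubule gene, was at 363, 127, 564 and 113 CPM in them. The 0 is thus not a measure of RNA from outside. Such RNA may be rarer in nuclei without *Lrp2* than in S2-like nuclei.

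The label was checked on *Slc22a6* and *Slc13a3*, which the rule did not use. *Slc22a6* encodes the organic anion transporter OAT1 and *Slc13a3* the sodium-dicarboxylate cotransporter NaDC3 that supplies the exchange by which OAT1 works. *Slc22a6* was at 429 and 477 CPM in the S2-like nuclei of the controls and at 486 and 358 in those of the knockouts. In S1-like nuclei of the same mice (at least 1 UMI of *Lrp2*, at least 2 of *Slc5a2* and *Slc5a12*, none of the S2 and S3 genes; 659 in all) it was at 167, 123, 292 and 137. In S3-like nuclei (at least 1 UMI of *Lrp2* and at least 2 of *Cyp7b1* and *Slc22a19*; 3737 in all) it was at 101.3, 52.2, 124 and 45.1. Every mouse thus had its highest level in S2-like nuclei, and the ranges of the S2-like nuclei did not overlap those of the others. The log2 fold change was 1.52 ± 0.16 (SE, adjusted p = 7.33e-10) against S1-like nuclei and 2.56 ± 0.13 (adjusted p = 4.53e-20) against S3-like nuclei.

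*Slc13a3* stood apart more widely. Its level in S2-like nuclei was 503 and 761 CPM in the controls and 540 and 566 in the knockouts, against 103 to 188 in S1-like and 82.2 to 117 in S3-like nuclei. The log2 fold changes were 2.09 ± 0.13 (adjusted p = 1.48e-15) and 2.65 ± 0.10 (adjusted p = 2.32e-23). At least 1 UMI of *Slc13a3* was found in 66.5%, 78.2%, 71.4% and 72.6% of the S2-like nuclei of the 4 mice, and in 5.50%, 3.21%, 7.91% and 2.55% of thick ascending limb nuclei. The latter are taken here as background, which may be too low, as those nuclei lacked *Lrp2* and were shallower. *Slc22a6* was found in 63.6% to 73.1% of S2-like nuclei and in 3.73% to 25% of thick ascending limb nuclei. Both markers were thus highest under the label S2 in all 4 mice. Not all S2 markers behaved so. Of 8 tested, these 2 included, 4 were higher and 0 lower than in S1-like nuclei, at an adjusted p under 0.05 and a log2 fold change of at least 1. By DESeq2 3 were higher. Against S3-like nuclei 5 were higher and 1 lower, *Slc22a7*, at -2.36.

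The genes of the rule were themselves high by choice and are given as values only. *Lrp2* was at 2156, 3055, 2104 and 2168 CPM. *Slc22a28* was at 1205, 1373, 1097 and 1026. *Cntnap5a* was at 764 and 815 in the libraries numbered 1 and at 368 and 328 in those numbered 2, so its level went with the replicate number rather than the genotype.

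**Figure D1:**
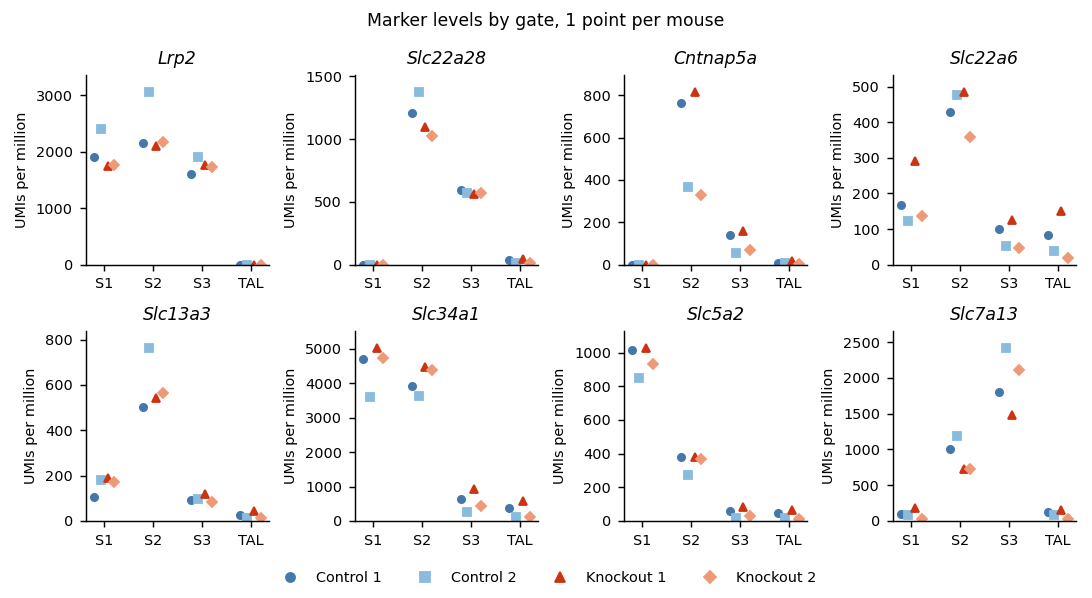
Levels of 8 marker genes in nuclei of the S1-like, S2-like, S3-like and thick ascending limb (TAL) gates, with 1 point per mouse, the gate on the x axis and CPM of the gate's summed UMIs on the y axis. *Slc22a6* and *Slc13a3*, which no gate used, were highest in S2-like nuclei of all 4 mice, *Slc34a1* was high in S1-like and S2-like nuclei, and *Slc7a13* was highest in S3-like nuclei.

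S2-like nuclei lay between S1 and S3 on markers that no gate used. For each nucleus the UMIs of 5 S1 genes (*Gatm*, *Slc7a7*, *Slc7a8*, *Slc4a4* and *Slc6a19*) were taken as a percentage of those plus the UMIs of 7 S3 genes (*Slc7a13*, *Slc5a10*, *Slc5a8*, *Slc5a1*, *Slc7a12*, *Acy3* and *Atp11a*). The median S2-like nucleus was at 52.6% and 52.1% in the controls and at 50% and 68.8% in the knockouts. S1-like nuclei had medians of 83.3% to 96.2% and S3-like nuclei of 6.25% to 9.09%. Between 20% and 80% lay 57.3%, 56.6%, 62.5% and 54.7% of S2-like nuclei, with 24.99% to 39.6% above and 5.68% to 12.5% below. Knockout mouse 2 had the most nuclei on the S1 side, with 39.6%, and the fewest on the S3 side, with 5.68%.

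Of the S2-like nuclei, 46.6%, 42.5%, 44.6% and 47.8% also met the *Slc5a2* and *Slc5a12* limit of the S1-like gate. The S1-like nuclei are only a part of the nuclei with S1 markers, those without UMIs of the S2 and S3 genes. The gate thus holds nuclei spread over the scale of S1 and S3 markers. Whether they form a gradient or a mix of distinct kinds of nuclei was not tested. Along the scale *Cntnap5a* was at 84.0, 59.6, 122 and 115 CPM in the nuclei at 80% or more. It was at 1097, 466, 1076 and 386 in those at 20% or less. *Slc22a28* was flatter, at 1419, 1463, 1398 and 1135 on the S1 side and at 1123, 1247, 922 and 1012 on the S3 side. *Esr1*, the estrogen receptor alpha, was at 3.91, 9.40, 4.30 and 16.2 on the S1 side and at 276, 306, 273 and 413 on the S3 side. *Slc22a6* was highest between both ends in each mouse, with 519, 554, 561 and 446 there, 204 to 286 on the S1 side and 426 to 518 on the S3 side. *Slc34a1*, the sodium-phosphate cotransporter NaPi-IIa, was at 4175 to 5541 on the S1 side and at 2898 to 3559 on the S3 side. These are values along a scale built in the same nuclei and carry no test.

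**Figure D2:**
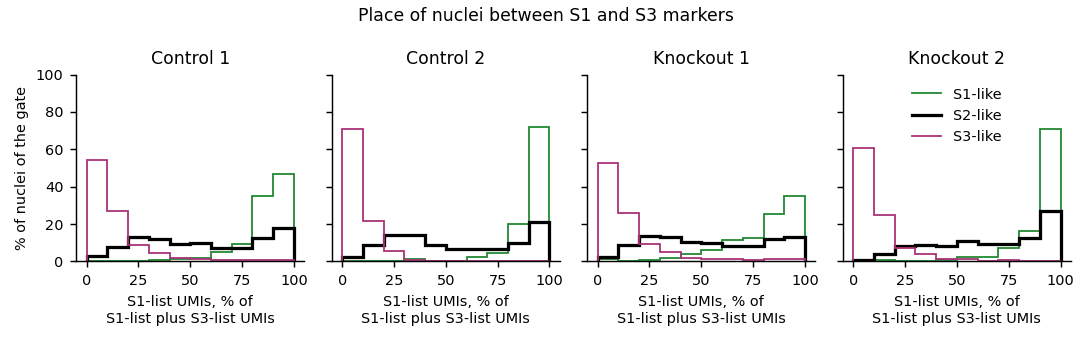
Place of single nuclei between S1 and S3, with 1 panel per mouse, the UMIs of 5 S1 genes as a percentage of those of 5 S1 and 7 S3 genes on the x axis, and the percentage of the gate's nuclei in each bin on the y axis. S3-like nuclei (magenta) pile up at the left and S1-like nuclei (green) at the right, whereas S2-like nuclei (black) spread over the whole scale, with medians of 50% to 68.8%.

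To show where S2-like nuclei differ from their neighbours, their summed UMIs were compared with those of S1-like and S3-like nuclei of the same 4 mice in 1 model with mouse and gate as terms. A gene was called at an adjusted p under 0.05 and a log2 fold change of at least 1. Of 17964 genes tested, 670 were called higher (3.73%) and 521 lower (2.9%) than in S1-like nuclei. Against S3-like nuclei 848 were higher (4.72%) and 1426 lower (7.94%). Genes of the gates were left out, but genes that vary along the tubule with them were not, so these contrasts describe how the gates differ and are not a discovery of segments. The scaling matters against S1-like nuclei: the median gene was at 0.17 on the log2 scale with TMM normalization, at -0.05 without it and at -0.10 by DESeq2, and the called genes were then split into 418 higher and 741 lower, and 408 higher and 727 lower. S1-like nuclei were few and shallow, with 93 to 215 nuclei and medians of 1693 to 2252 UMIs per mouse. As 42.5% to 47.8% of S2-like nuclei also met the *Slc5a2* and *Slc5a12* limit, this contrast does not fully separate S1 from S2.

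Most genes called against both neighbours ran in 1 direction along the tubule. Higher than in S1-like and lower than in S3-like nuclei were 119 genes, and the reverse held for 107. Higher than in both were 64 genes, of which 24 reached 50 CPM, and lower than in both were 87, of which 12 did. By the smaller of both fold changes, *Slc13a3* led the 24. With it stood *Nat8f6*, an N-acetyltransferase 8 family gene (log2 fold change 2.67 ± 0.30 against S1-like and 1.67 ± 0.17 against S3-like nuclei), *Nrp1*, a coreceptor for VEGF and semaphorins (1.78 ± 0.21 and 1.61 ± 0.11), *Cndp1*, which encodes the dipeptidase that splits carnosine (2.10 ± 0.20 and 1.38 ± 0.12), and *Bbox1*, the last enzyme of carnitine synthesis (3.87 ± 0.32 and 1.27 ± 0.10). *Naaladl2*, *Inmt*, *B4galt1* and *Degs2* were also among them.

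Transporters of organic ions and drugs, the group S2 is known for, were more often called higher than lower. Of 27 tested, 10 were called higher and 1 lower than in S1-like nuclei, at a median of 0.70 on the log2 scale, and without TMM normalization 6 were higher and 2 lower. Against S3-like nuclei 9 were higher and 4 lower, with a median of 0.24. *Slco1a1*, an organic anion transporting polypeptide, was at 314, 208, 269 and 183 CPM in S2-like nuclei, at 16.03 to 54.6 in S1-like and at 54.4 to 143 in S3-like nuclei, with log2 fold changes of 2.97 ± 0.18 and 1.36 ± 0.09. Each mouse had its highest level of *Slco1a1* in S2-like nuclei. *Slco1a6*, *Slc17a3* and *Slc22a30* were higher than in S1-like nuclei by 2.55 ± 0.12, 1.74 ± 0.11 and 1.72 ± 0.12, and were not called against S3-like nuclei (-0.10 ± 0.09, 0.06 ± 0.09 and 0.04 ± 0.10). *Slc22a8*, which encodes OAT3, did the opposite, with 2.92 ± 0.15 against S3-like nuclei and 0.48 ± 0.17 (adjusted p = 0.0598) against S1-like nuclei. *Slc22a7*, *Slc22a26* and *Slco4c1* were called lower than in S3-like nuclei, by log2 fold changes of -2.36 ± 0.14, -4.42 ± 0.17 and -5.89 ± 0.27.

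Amino acid transporters changed sides along the tubule. Of 20 tested, 5 were called higher and 2 lower than in S1-like nuclei, and 8 were higher and 8 lower than in S3-like nuclei. Against S1-like nuclei the split was 4 higher and 4 lower without TMM normalization, and 4 and 3 by DESeq2. *Slc7a13*, a transporter of aspartate, glutamate and cystine known from S3, was at 1011, 1191, 733 and 720 CPM, between 20.6 to 174 in S1-like and 1480 to 2412 in S3-like nuclei (3.44 ± 0.22 and -1.07 ± 0.15). *Slc6a18*, a transporter of neutral amino acids of the late tubule, was likewise between both, at 374 to 485 against 51.7 to 70.8 and 1298 to 1955 (3.03 ± 0.14 and -1.83 ± 0.09). Its relative of the early tubule, *Slc6a19*, was at 179 to 276 in S2-like nuclei, against 377 to 692 in S1-like and 20.7 to 68.9 in S3-like nuclei. *Slc6a19* was called against S3-like nuclei (2.58 ± 0.13), and its difference of -0.77 ± 0.13 from S1-like nuclei (adjusted p = 9.97e-06) was smaller than the fold limit. *Slc7a8* and *Slc16a10*, basolateral exits for neutral and aromatic amino acids, were called in both contrasts, lower than in S1-like nuclei by -1.73 ± 0.16 and -1.21 ± 0.11, and higher than in S3-like nuclei by 2.87 ± 0.17 and 1.93 ± 0.11.

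Transport of phosphate, sodium, bicarbonate and sulfate set S2-like nuclei apart from S3 more than from S1. Of 24 genes, 12 were called higher and 1 lower than in S3-like nuclei, at a median of 0.69 on the log2 scale. Against S1-like nuclei 3 were higher and 1 lower, and the median of 0.17 was that of all genes, at -0.05 without TMM normalization. *Slc34a1* was at 3912, 3622, 4472 and 4387 CPM in S2-like nuclei, 3605 to 5018 in S1-like nuclei and 255 to 924 in S3-like nuclei, so that S1-like and S2-like levels overlapped (0.10 ± 0.13, adjusted p = 0.683) and S3-like levels were lower in each mouse (3.03 ± 0.14, adjusted p = 4.8e-21). *Slc9a3*, the sodium-proton exchanger NHE3, followed the same course, with 3.08 ± 0.12 against S3-like nuclei. *Slc4a4*, the basolateral sodium-bicarbonate cotransporter, was higher than in S3-like nuclei (2.22 ± 0.11), and its level was below that of S1-like nuclei in each mouse without passing the test (-0.27 ± 0.10, adjusted p = 0.0682). *Car4*, a carbonic anhydrase of the brush border, was called higher than in both (1.39 ± 0.17 and 2.38 ± 0.11). *Slc13a2*, the apical dicarboxylate transporter, was higher than in S1-like nuclei (2.13 ± 0.20), and *Slc34a3*, the minor phosphate cotransporter NaPi-IIc, was lower (-1.48 ± 0.15) but higher than in S3-like nuclei (2.44 ± 0.15). *Slc9a8*, another sodium-proton exchanger, was the gene called lower than in S3-like nuclei (-2.09 ± 0.09).

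Enzymes that oxidize and conjugate drugs and steroids included several of the genes highest in S2. Of 26 tested, 8 were called higher and 2 lower than in S1-like nuclei, and 10 were higher and 4 lower than in S3-like nuclei. Without TMM normalization, and by DESeq2, 7 were higher and 4 lower than in S1-like nuclei. *Cyp2e1*, which oxidizes ethanol and other small molecules, was at 454, 379, 456 and 404 CPM in S2-like nuclei, against 113 to 340 in S1-like and 42.0 to 138 in S3-like nuclei (1.38 ± 0.17 and 2.59 ± 0.14). *Cyp2j13*, a relative of the arachidonic acid epoxygenases, was at 852, 803, 828 and 978, against 296 to 481 and 117 to 197 (1.46 ± 0.12 and 2.56 ± 0.11). All 4 mice had both genes highest in S2-like nuclei. *Gpx3*, the plasma glutathione peroxidase made by the proximal tubule, was lower than in S1-like and higher than in S3-like nuclei (-1.15 ± 0.12 and 1.76 ± 0.13). *Cyp24a1* and *Cyp27b1*, which degrade and make active vitamin D, were higher than in S3-like nuclei (2.98 ± 0.20 and 2.58 ± 0.38) and were not called against S1-like nuclei (-0.44 ± 0.22 and -0.83 ± 0.45).

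**Figure D3:**
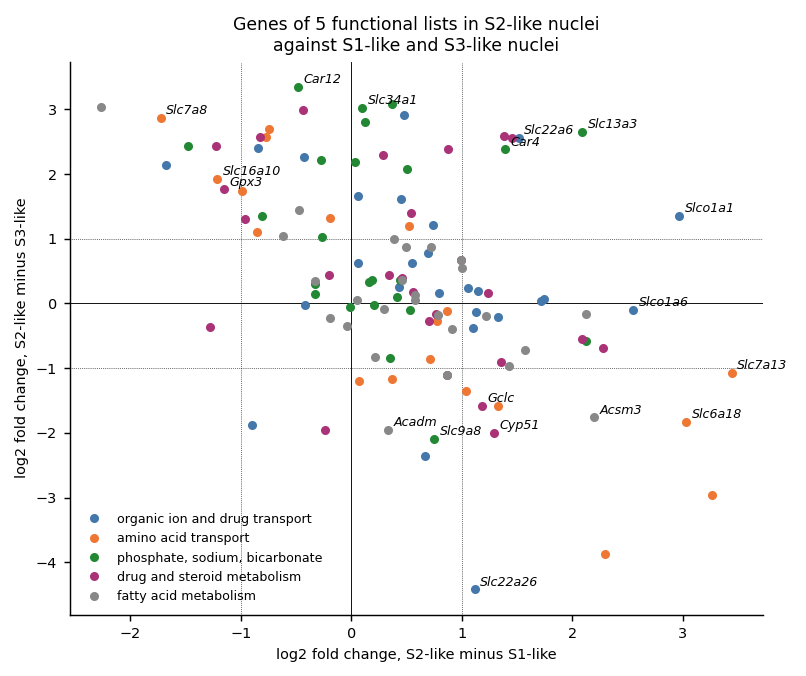
Each point is a gene of 1 of 5 functional lists, with the log2 fold change of S2-like minus S1-like nuclei on the x axis and of S2-like minus S3-like nuclei on the y axis, from edgeR fits on sums of 4 mice per gate; dotted lines mark the fold limit of 1. *Slc13a3*, *Slc22a6*, *Car4* and *Slco1a1* lie in the upper right, higher than in both neighbours, and *Slc7a13* and *Slc6a18* lie in the lower right, between S1 and S3.

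Of 26 genes of fatty acid and ketone metabolism, 6 were called higher and 1 lower than in S1-like nuclei, and 3 in either direction against S3-like nuclei. *Cd36*, a fatty acid carrier, and *Slc27a2*, which activates long chains, were higher than in S1-like nuclei by 2.13 ± 0.15 and 1.57 ± 0.10. *Acsm3*, a medium-chain acyl-CoA synthetase, was higher than in S1-like and lower than in S3-like nuclei (2.20 ± 0.20 and -1.76 ± 0.13), and *Acadm*, the medium-chain dehydrogenase, was lower than in S3-like nuclei (-1.95 ± 0.10). Of 13 genes of gluconeogenesis and ammonia formation, 2 were higher than in S1-like nuclei and 2 higher and 1 lower than in S3-like nuclei. *Pck1*, the first committed enzyme of gluconeogenesis, was called against S1-like nuclei (1.37 ± 0.12), and *G6pc*, the last, against S3-like nuclei (2.85 ± 0.13). *Slc38a3*, a glutamine transporter known from S3, was at 4.61 to 8.20 CPM in S2-like nuclei, lower than in S3-like nuclei (-2.97 ± 0.14), and had 1 UMI in all S1-like nuclei.

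The calls among genes of megalin endocytosis stand beside the shares over all genes. Those were 3.73% higher and 2.9% lower than in S1-like nuclei, and 4.72% higher and 7.94% lower than in S3-like nuclei. In a list this short, few calls do not set the pathway apart. Of 17 genes of that pathway, 0 were called against S1-like nuclei by edgeR's quasi-likelihood test with the fold limit, with 2 lower and 2 higher at an unadjusted p under 0.05, and no TMM normalization or DESeq2 gave 0 as well. Against S3-like nuclei 1 was called, *Dab2*, the adaptor that links megalin to clathrin, which was higher (2.39 ± 0.11), and at an unadjusted p under 0.05 there were 9 higher and 2 lower, with a median of 0.24 over the list. *Cubn*, the partner receptor of megalin, had log2 fold changes of 0.28 ± 0.09 and -0.23 ± 0.08, both smaller than the fold limit.

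Of 18 transcription factors and nuclear receptors, 2 were called higher than in S1-like nuclei and 4 higher than in S3-like nuclei, and 0 were lower by edgeR's quasi-likelihood test, with 2 and 4 lower at an unadjusted p under 0.05. Without TMM normalization and by DESeq2, 1 was higher and 1 lower than in S1-like nuclei. *Hnf4g*, a nuclear receptor related to *Hnf4a*, was among those higher than in S1-like nuclei (1.44 ± 0.12). *Maf* and *Nr1h4*, the bile acid receptor FXR, were among those higher than in S3-like nuclei (2.22 ± 0.09 and 1.51 ± 0.09). *Hnf4a*, the factor that sets proximal tubule identity, was higher than in S1-like nuclei by less than the fold limit (0.61 ± 0.10) and at 0.02 ± 0.08 against S3-like nuclei. Of 14 hormone and growth factor receptors, 1 was higher and 1 lower than in S1-like nuclei, and 2 were higher and 1 lower than in S3-like nuclei. *Ghr*, the growth hormone receptor, was at 5522, 6457, 6849 and 7570 CPM, between 1802 to 2745 in S1-like and 12980 to 17249 in S3-like nuclei (1.81 ± 0.10 and -1.07 ± 0.09). *Adra1a*, the alpha-1A adrenergic receptor, ran the other way, at 279, 255, 243 and 259 against 492 to 679 and 19.5 to 46.5 (-0.98 ± 0.12, smaller than the fold limit, and 3.09 ± 0.13).

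Among all genes at 50 CPM or more, *Gm13936* had the largest fold change above S1-like nuclei (4.63 ± 0.23) and *Gm16004* the largest above S3-like nuclei (4.02 ± 0.18). Both were called higher than in either neighbour, with 1.39 ± 0.10 for *Gm13936* against S3-like and 1.65 ± 0.25 for *Gm16004* against S1-like nuclei, as were *Bbox1* and *0610031O16Rik* among the 10 genes with the largest changes from S1. Others of the 10 above S1-like nuclei were *Esr1* (4.06 ± 0.27), *Gfra1*, the GDNF coreceptor (3.96 ± 0.34), *Hsd17b2*, which inactivates estradiol and testosterone (3.81 ± 0.36), and *Alk*, a receptor tyrosine kinase (3.77 ± 0.25). *Esr1* was at 121, 148, 124 and 139 CPM in S2-like nuclei, 0.0 to 22.9 in S1-like and 514 to 754 in S3-like nuclei. Others of the 10 above S3-like nuclei were *Slc16a14*, a monocarboxylate transporter family member (3.66 ± 0.17), *Bnc2*, a zinc finger protein (3.45 ± 0.15), *Etv1*, an ETS factor (3.42 ± 0.14), and *Car12*, a membrane carbonic anhydrase (3.35 ± 0.19). *Bnc2* was at 1603, 1450, 1329 and 1463 in S2-like, 1464 to 1884 in S1-like and 73.2 to 194 in S3-like nuclei. Lower than in S3-like nuclei were *Chrdl1*, a BMP antagonist, *Bcat1*, which transfers amino groups of branched-chain amino acids, *Ror2*, a Wnt5a receptor, and *Chrm3*, the muscarinic receptor M3. *Bcat1* was at 5.40, 6.50, 6.93 and 1.95 in S2-like and 231 to 594 in S3-like nuclei, and *Chrm3* at 10.4 to 20.6 against 305 to 504 (-4.64 ± 0.12).

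Genes lower than in S1-like nuclei need a further value beside them. Thick ascending limb markers were also higher in S1-like than in S2-like nuclei: 6 of them summed to 887 to 2531 CPM in S1-like, 595 to 821 in S2-like and 786 to 989 in S3-like nuclei. For 4 connecting tubule markers the sums in S1-like nuclei were 310 and 56.6 in the controls and 1957 and 577 in the knockouts. In S2-like nuclei they were 299.6 and 66.4 against 170 and 162, and in S3-like nuclei 122 and 54.6 against 558 and 219. Without nuclei that held 2 or more UMIs of other cell types' markers, 145 genes were called lower than in S1-like nuclei in place of 521. That filter removed 44.0% to 72.1% of the S1-like and 60.3% to 77.9% of the S2-like nuclei of a mouse. How far the loss of counts lowered the number called was not tested. *Ccdc85a*, *Sv2a*, *Apoe*, *Col8a1* and *Spp1* were among the genes with the largest such fold changes (-3.13 ± 0.27, -2.75 ± 0.24, -2.23 ± 0.14, -2.20 ± 0.18 and -2.15 ± 0.18). *Apoe*, the lipid carrier, was at 37.8, 25.7, 34.9 and 17.1 in S2-like and at 104 to 212 in S1-like nuclei. *Ctsc*, a lysosomal protease, rested on 1 mouse, with 241 in the S1-like nuclei of control mouse 2 and 9.65 to 17.2 in those of the others. Of 15 genes of tubule injury and repair, 6 were called lower and 0 higher than in S1-like nuclei by edgeR's quasi-likelihood test, with 8 and 1 at an unadjusted p under 0.05. Among the 6 were *Vcam1* (-3.91 ± 0.55), *Cdkn1a* (-3.07 ± 0.64) and *Spp1*, of which *Vcam1* and *Cdkn1a* had at most 15 UMIs in the S2-like nuclei of any mouse. *Havcr1*, the injury marker KIM-1, was lower than in S3-like nuclei (-3.39 ± 0.15), at 2.37 to 6.50 against 28.1 to 51.5. The part of other cells' RNA in these differences was not tested beyond that.

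The share of S2-like nuclei was compared between genotypes. Of nuclei with *Lrp2*, 44.3% and 35.1% were S2-like in the controls and 44.3% and 51.5% in the knockouts. The mean was 39.7% ± 6.49 (SD, n = 2) against 47.9% ± 5.08, a difference of 8.19 percentage points with p = 0.333 (exact permutation test, two-sided), the smallest p that 2 mice against 2 allow. Exact binomial intervals were 42.9% to 45.7%, 33.3% to 37.0%, 43.0% to 45.6% and 49.9% to 53.1%, which cover counting error only. Within the libraries numbered 1 the difference was 0.0147 percentage points, and within those numbered 2 it was 16.4. Of all nuclei kept, the shares were 29.3% and 16.8% against 31.4% and 31.1%, with a difference of 8.21 percentage points (exact permutation p = 0.333), of 2.10 within number 1 and of 14.3 within number 2. The cortex was trimmed by hand from each slice, so a share of nuclei here is a share of what was left, and the part of the dissection was not tested.

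The rule counts UMIs, so the shares were also taken at equal depth. With each nucleus thinned to 1000 UMIs, and nuclei under that left out, S2-like nuclei were 31.9% and 23.3% of the *Lrp2* nuclei in the controls and 30.3% and 22.5% in the knockouts. The difference was then -1.13 percentage points (exact permutation p = 0.667), in the opposite direction. The libraries numbered 1 stood above those numbered 2 in either genotype. Under 1% mitochondrial UMIs the shares were 54.3%, 39.9%, 54.3% and 53.8%, where control mouse 2 alone was low. Over all nuclei kept, the thinned difference was 1.58 percentage points (exact permutation p = 0.667).

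**Figure D4:**
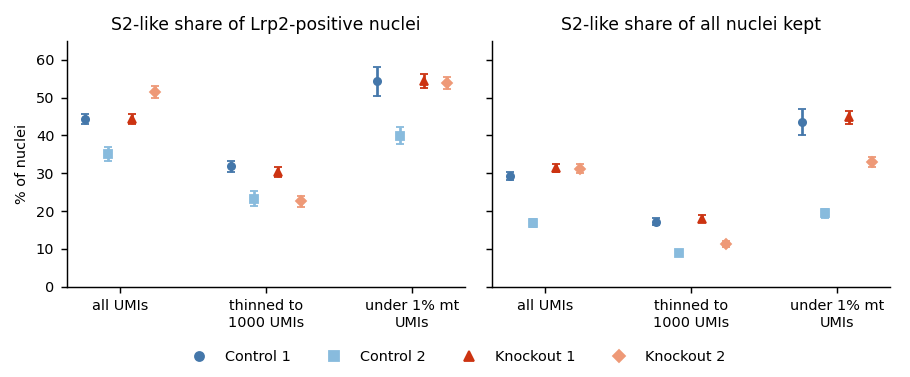
S2-like share of *Lrp2* nuclei (left) and of all nuclei kept (right), in percent of nuclei on the y axis, for 3 ways of counting on the x axis; points are mice and bars are exact binomial 95% intervals. With all UMIs the knockout mice stand at 44.3% and 51.5% and the controls at 44.3% and 35.1%, and after thinning to 1000 UMIs the groups overlap.

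Between knockout and control mice 1 gene passed the test in S2-like nuclei. Of 16474 genes tested, 1 was called lower (0.00607%) and 0 higher (0.0%) by edgeR's quasi-likelihood test. At an unadjusted p under 0.05 there were 366 lower (2.22%) and 223 higher (1.35%), DESeq2 called 10 lower and 9 higher, and the mice of both groups did not overlap for 5149 genes (31.3%). The sums behind this contrast were 7590154 and 3538697 UMIs in the controls and 8371196 and 7190399 in the knockouts. With only 4 mice, the edgeR p-values set each difference against the spread between 2 mice a group. That spread is drawn toward a trend over all genes tested.

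The gene that fell was *Npas3*, which encodes a basic helix-loop-helix PAS domain transcription factor and lies at chr12:53248026-54072173 of mm10. Its UMIs in S2-like nuclei numbered 1951 and 747 in the controls and 17 and 4 in the knockouts. In CPM these were 257 and 211 against 2.03 and 0.556, so that the groups were far apart. The log2 fold change was -7.46 ± 0.46 (SE, adjusted p = 0.0300), and each knockout mouse was below each control mouse. At least 1 UMI was found in 47.2% and 43.4% of S2-like nuclei of the controls and in 0.636% and 0.156% of those of the knockouts, against 1.09%, 0.573%, 0.299% and 0.392% of thick ascending limb nuclei. The share in the knockouts was thus at the level of background.

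*Npas3* was low all along the gate in the knockouts. In the control mice it was at 224 and 251 CPM in the S2-like nuclei on the S1 side, at 279 and 200 in the middle and at 220 and 182 on the S3 side, whereas the knockout mice were at 0.0 to 2.39 in all 3. It was also low outside S2-like nuclei, with 207 and 354 against 0.0 and 20.6 in S1-like nuclei and 183 and 104 against 2.04 and 2.78 in S3-like nuclei. In S1-like nuclei 9 UMIs of knockout mouse 2 made up all of the knockout count. With knockout counts this low in every gate, the size of the fold changes cannot be ranked between segments. The call held in 12 of 16 alternatives, with log2 fold changes from -8.71 to -6.87 and adjusted p-values from 1.32e-57 (DESeq2) to 0.603. It was lost without control mouse 1 (adjusted p = 0.184), without control mouse 2 (adjusted p = 0.603), after subtraction of free RNA (adjusted p = 0.138) and with the stricter filterByExpr (adjusted p = 0.0563). Without a control mouse, the lone control is assumed to vary like the knockouts, so these p-values take their spread from the knockout pair.

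*Tfap2a*, the targeted gene, was near the limit of detection in these nuclei, with 9 and 2 UMIs in the controls and 11 and 12 in the knockouts (log2 fold change 0.60 ± 0.56, adjusted p = 1.0). UMIs were taken at 3′ ends, and a transcript without exons 5 and 6 can still give them, and this count does not check the genotype. *Tfap2b*, the related AP-2 factor of the distal nephron, had 78 and 43 against 52 and 62 UMIs (-0.61 ± 0.28, adjusted p = 1.0). *Tfap2c*, *Tfap2d* and *Tfap2e* had fewer than the 10 UMIs needed for the test.

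Other genes of small p did not pass the adjustment over all genes, and are given as values. Among those lower in both knockout mice was *Gadd45g*, a growth arrest gene, at 64.3 and 127 CPM in the controls and 25.2 and 23.1 in the knockouts. *Nckap5* was at 79.8 and 80.3 against 35.8 and 23.2, and *Gm45030* at 28.2 and 25.2 against 12.2 and 9.32. *Sgcz*, a sarcoglycan gene, was at 33.5 and 26.6 against 5.02 and 7.93. In thick ascending limb nuclei, where *Sgcz* was abundant, it was at 1169 and 1228 against 28.1 and 82.1, and after subtraction of free RNA its log2 fold change in S2-like nuclei was -0.35 in place of -2.25. The adjusted p-values of these 4 genes were 0.730 for *Sgcz* and 1.0 for the others.

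Higher in both knockout mice, likewise without passing, were *Arhgap15*, which acts on the GTPase Rac, at 63.1 and 56.5 CPM in the controls and 159 and 145 in the knockouts (adjusted p = 0.730), and *Ubash3b*, a tyrosine phosphatase, at 41.9 and 53.7 against 115 and 148 (adjusted p = 1.0). *Nat8f3* was at 95.4 and 102 against 229 and 248 (adjusted p = 0.730) and *Nat8f6* at 90.9 and 106 against 221 and 347 (adjusted p = 1.0). Both are N-acetyltransferase 8 family genes, at chr6:85760631-85765767 and chr6:85808044-85809877, and close copies can share reads. *Ptn*, the growth factor pleiotrophin, had 2 and 0 UMIs in the controls and 106 and 50 in the knockouts, a ratio of 55.8 with a counting interval of 15.2 to 465 (adjusted p = 0.730). In S3-like nuclei *Ptn* was at 1.02 and 0.0 against 95.7 and 89.3 CPM, and in S1-like nuclei it had 0 UMIs in each mouse.

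**Figure D5:**
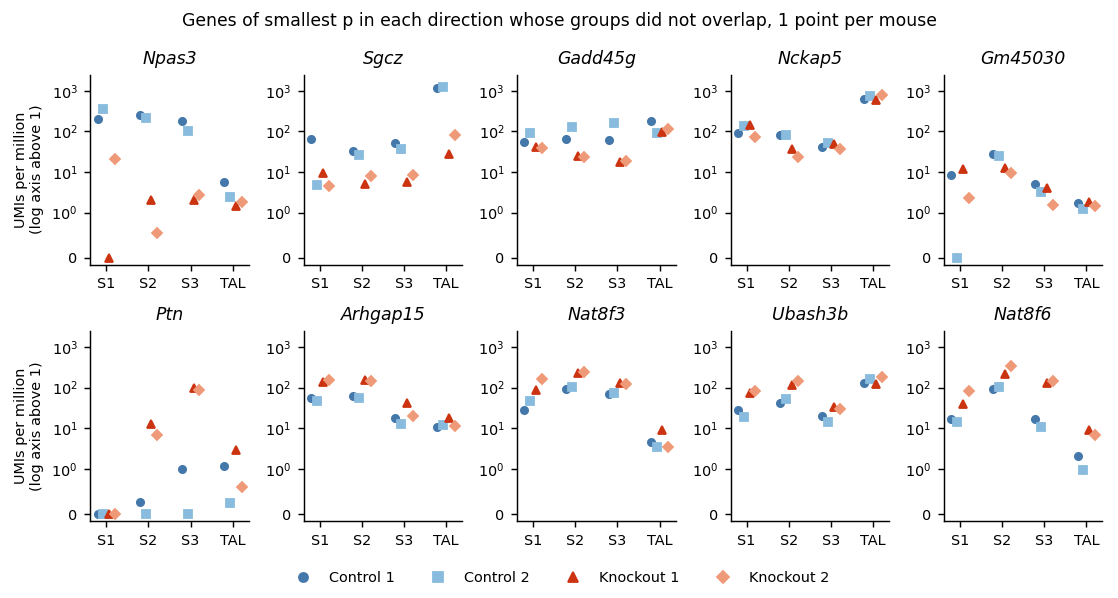
Levels of the 5 genes of smallest p in each direction between knockout and control S2-like nuclei, among those whose groups did not overlap, with 1 point per mouse, the gate on the x axis and CPM on the y axis (log scale above 1, linear below). *Npas3* (top left), the gene called, was at 257 and 211 in the S2-like nuclei of the controls and at 2.03 and 0.556 in those of the knockouts; the other 9 genes did not pass the adjustment over all genes.

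The functional groups of the tubule held no called gene between genotypes by edgeR's quasi-likelihood test, and the median of all genes was 0.02. Over 27 organic ion transporters the median log2 fold change was -0.13, with 1 lower and 0 higher at an unadjusted p under 0.05. Over 20 amino acid transporters it was -0.03, with 4 lower and 0 higher at that p, and *Slc7a13* at 1011 and 1191 against 733 and 720 CPM was 1 of them. Over 24 ion transporters it was -0.03, with 1 in either direction. Over 26 drug and steroid enzymes it was 0.15, with 1 lower and 2 higher, and over 13 genes of gluconeogenesis 0.08, with *Pck1*, at 483 and 587 against 843 and 941, the 1 higher. Over 17 endocytosis genes it was 0.04, with 0 at that p in either direction. Over 15 genes of tubule injury and repair it was -0.41, with 2 lower and 1 higher at that p. *Slc22a6* and *Slc13a3*, which mark S2, had log2 fold changes of -0.12 ± 0.21 and -0.22 ± 0.24 (adjusted p = 1.0 for both). The 7 S3 genes outside the rule had a median of -0.62, with 6 of 7 lower and 1 at an unadjusted p under 0.05. Over all 16474 genes tested 7855 were lower. The same 7 genes form the S3 side of the scale above, where knockout mouse 2 had 5.68% of its S2-like nuclei against 12.2% to 12.5% in the other mice. The part of that difference in make-up was not tested.

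Sums of markers of other cell types inside the gate were also compared between genotypes. In S2-like nuclei 6 interstitial markers summed to 5.37 to 6.46 CPM in the controls and 1.79 to 1.95 in the knockouts, and 6 endothelial markers to 42.4 to 52.3 and 27.5 to 30.5. The interstitial sums rested on 49, 19, 15 and 14 UMIs. Also lower in both knockouts were the sums of 6 thick ascending limb markers (819 to 821 and 595 to 727), 5 thin limb markers (102.3 to 102.4 and 41.9 to 95.7) and 6 immune markers (41.8 to 44.9 and 25.03 to 41.1). The sums of the other 6 lists overlapped between genotypes. Over all genes tested, the groups did not overlap for 31.3%, so a lack of overlap in some lists does not show an effect of genotype. Of 60 markers in 11 lists of other cell types and of cell division, 0 were at 0 in all mice. Median mitochondrial percentages were 1.49 and 0.513 in the controls and 0.847 and 0.343 in the knockouts, so they overlapped. The part of these values in the genotype contrast was not tested, apart from the count of 1 gene lower and 0 higher, by edgeR's quasi-likelihood test, that also held without nuclei with markers of other cell types and without called doublets. Without nuclei with such markers, 557, 217, 555 and 763 S2-like nuclei were left.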

How the data were processed

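Nuclei of 4 mice were profiled with 10x Chromium 3′ chemistry, with 1 library per mouse. The authors deposited UMI counts per gene and barcode, made with Cell Ranger 3.0.2 on mm10 per the labels, with no normalization. Here the 10000 barcodes with most UMIs in each library were taken, and those with 501 to 3999 genes and under 5% mitochondrial UMIs were kept. Doublets were kept in and left out in an alternative, ranked by Scrublet (scanpy 1.11.5) and called at 0.8% per 1000 nuclei. Counts of a gate were summed per mouse and tested with edgeR 4.0.16 (quasi-likelihood test, TMM, at least 10 UMIs over all sums, Benjamini-Hochberg over all genes tested), in R 4.3.3. DESeq2 1.42.0 was an alternative. The design of sums per mouse stands in place of the authors' tests on pooled nuclei. Shares used an exact permutation test over mice and exact (Clopper-Pearson) 95% binomial intervals, in scipy 1.17.1. Levels are CPM, a gene's UMIs scaled to a common total of the gate. The tests were checked on simulated data. There every gene was given the same spread between mice beyond counting error, and changes were placed only in genes above the lowest counts. The genotype test then found 25% of 2-fold and 93% of 4-fold changes. Real genes differ in spread and include sparser ones, so fewer such changes may be found in the data. A gene not called may still have changed. The interaction test against S1-like nuclei found 11% and 53%, and that against S3-like nuclei 53% and 88%.

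Named between genotypes were up to 5 genes per direction of smallest p for which both knockout mice lay on the same side of both controls. Between gates they came from the 10 largest fold changes per direction at 50 CPM or more, the genes higher than in both neighbours, and in each list the most abundant and most different members. A few further list members were chosen after their values were seen. The members and lists were chosen with earlier results of these data known. Other settings tried were no TMM, filterByExpr, no filter on low counts, a replicate block, each mouse left out, control mice only, fewer mitochondrial UMIs, other limits of the rule, thinning to 1000 UMIs, and removal of free RNA, doublets or nuclei with other markers.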

Additional observations from a re-analysis of the deposited data

Results flagged for a closer look

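For 3 genes the fitted change between knockout and control mice in S2-like nuclei differed from that in a neighbouring segment, by edgeR's quasi-likelihood test of the interaction. For *Npas3* the fitted difference between S2-like and S1-like nuclei was -2.78 ± 0.67 on the log2 scale (adjusted p = 0.0236). The S1-like nuclei held 72 and 75 UMIs in the controls and 0 and 9 in the knockouts, and the S2-like nuclei of the knockouts 17 and 4, so both folds rest on counts near background and the difference does not show that either gate changed more. *Nckap5*, which did not pass between genotypes in S2-like nuclei alone, differed from S1-like nuclei by -1.44 ± 0.29 (adjusted p = 0.000668) and from S3-like nuclei by -1.34 ± 0.20 (adjusted p = 1.48e-07). Its levels were 79.8 and 80.3 CPM in the controls and 35.8 and 23.2 in the knockouts in S2-like nuclei, 89.0 and 137 against 140 and 73.3 in S1-like nuclei, and 41.3 and 50.7 against 48.3 and 36.5 in S3-like nuclei. *Nckap5* was abundant in thick ascending limb nuclei, at 613 and 746 CPM in the controls and 596 and 771 in the knockouts. Markers of that cell type summed to 1576 and 887 against 2531 and 1241 CPM in S1-like nuclei, and to 819 to 821 against 595 to 727 in S2-like nuclei, and their part in this difference was not tested. *Nat8f6* changed less in S2-like than in S3-like nuclei, by -1.81 ± 0.21 (adjusted p = 5.47e-14), with 16.6 and 10.5 against 130 and 143 CPM in S3-like nuclei. Over all genes tested, the interaction passed for 30 genes against S1-like nuclei (0.167%) and for 36 against S3-like nuclei (0.2%).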

How the results depend on the processing

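Between genotypes, the 1 gene lower and 0 higher by edgeR became 10 and 9 by DESeq2, 36 and 43 with no filter on low counts, and 0 lower with filterByExpr or after subtraction of free RNA. Leaving out 1 mouse gave 0 to 1 lower and 0 to 5 higher: 0 lower without control mouse 1 or control mouse 2, 1 lower and 2 higher without knockout mouse 1, and 1 lower and 5 higher without knockout mouse 2. The mouse left alone in its group is then assumed to vary like the other group. With the replicate number as a block, 5 genes were lower and 11 higher. The deviations of same-numbered mice correlated at 0.414 over 11332 genes, but with only 2 pairs a shared number does not show that the mice were paired. Of genes called against S1-like nuclei, the higher ones numbered 418 without TMM and 408 by DESeq2 in place of 670, and the lower ones 325 in control mice only, 232 at 1000 UMIs a nucleus and 145 without nuclei with markers of other cell types in place of 521. The lower genes against S3-like nuclei numbered 751 in place of 1426 without nuclei with such markers. Leaving out those nuclei removed 60.3% to 77.9% of the S2-like and 79.1% to 87.7% of the S3-like nuclei of a mouse, which lowers the counts as well. The share of *Lrp2* nuclei differed by -1.13 percentage points after thinning, in place of 8.19. Other alternatives kept the direction and the side of the threshold of these results in 89 cases, and among single genes 616 kept both, 23 newly passed, 5 no longer passed and 0 reversed. The limit of up to 1 UMI of *Cyp7b1* and *Slc22a19* was chosen after seeing the data. The causes of these changes were not tested. With 2 mice a group and 4 to 17 UMIs of *Npas3* in the knockouts, its fold change is imprecise.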

Other observations

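All 13 transcripts encoded by mitochondrial DNA had a fitted change below 0 between knockout and control S2-like nuclei, at a median of -0.76 on the log2 scale. Over all 16474 genes tested 7855 were lower. Of the 13, 0 passed by edgeR's quasi-likelihood test, with 2 at an unadjusted p under 0.05. The mice overlapped in median mitochondrial percentage, at 1.49 and 0.513 in the controls and 0.847 and 0.343 in the knockouts. The 13 transcripts share that percentage and are not separate results. Of 18 clock genes 0 passed by edgeR's quasi-likelihood test, with 3 lower and 4 higher at an unadjusted p under 0.05, and their median was 0.39. Over all genes tested 2.22% were lower and 1.35% higher at that p. *Arntl*, the core activator BMAL1, was at 21.9 and 32.5 CPM in the controls and at 12.4 and 15.2 in the knockouts. *Ciart*, a repressor of that activator, was at 5.53 and 3.11 against 13.7 and 16.3. In thick ascending limb nuclei *Arntl* was at 42.5 and 41.4 against 28.1 and 5.35, and *Ciart* at 2.05 and 1.97 against 1.85 and 7.73. The hour at which each mouse was sampled was not analysed here.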
